A study of Mus musculus with 3 samples.

Results

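Polg, Nsun3, Mtif2, Immp1l and Cmc4 are 5 nuclear genes whose proteins work in mitochondria and whose mRNAs were named by the study as carriers of an upstream open reading frame (uORF). A uORF is a short frame that begins in the 5′ UTR, before the coding sequence (CDS). The 5 symbols were matched to transcript identifiers through GENCODE M21, and the longest transcript of each gene was taken among 20823 genes with all 3 mRNA regions annotated. The genes were selected on a search for translated frames that drew on these same libraries, so a high footprint count in their 5′ UTRs is a description and not a test.

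The footprints came from primary cortical neurons of CD-1 mouse embryos. Neurons labelled WT received no drug, neurons labelled Chx received cycloheximide for 2 min, and neurons labelled Harr received harringtonine for 2 min and then a cycloheximide pulse. The free-text descriptions of the same samples name input and pulldown fractions of "dep" neurons, at odds with their titles and treatment entries, and the groups follow the latter. Each library was made from 3 pooled dishes, there was 1 library per treatment, and the buffers of all 3 libraries contained 100 µg ml−1 cycloheximide. Differences between treatments thus have no replicate behind them. Each interval given is a 95% interval computed from read counts of single libraries, so it covers counting error only. It is too narrow where amplified reads are not independent molecules. The libraries held 35722483 reads (Chx), 9754412 reads (Harr) and 30219197 reads (WT), and reads in 5′ UTRs made up 8.71%, 33.5% and 6.14% of those in the 3 mRNA regions. Neuronal markers were read in all libraries, with a summed CDS level of 4033.9 to 4601.6 reads per 1000000 (RPM) for 8 genes and none of them at 0. The 4 astrocyte markers summed to 195 (Chx), 78.8 (Harr) and 213 (WT) RPM, the 4 microglial markers to less than 2 and the 4 oligodendrocyte markers to at most 6.52. Of these last lists, 2 oligodendrocyte markers were at 0 in every library and 3 microglial markers were at 0 in Harr.

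Ribosome profiling reads the stretch of mRNA that a ribosome covers. Cycloheximide arrests elongating ribosomes, whereas harringtonine traps ribosomes that have just started and lets those farther along run off, so reads from Harr gather near start codons. Frames upstream are read before the main start codon is reached, and uORFs are known as a layer of control over how often that start codon is used. Polg encodes the catalytic subunit of DNA polymerase gamma, which copies the mitochondrial genome. Nsun3 encodes the methyltransferase that modifies the wobble cytosine of mitochondrial tRNA-Met. Mtif2 encodes mitochondrial translation initiation factor 2, which brings the initiator tRNA to the mitochondrial ribosome. Immp1l encodes a subunit of the inner membrane peptidase, which removes sorting signals from proteins of the intermembrane space. Cmc4 encodes a small intermembrane space protein with paired cysteine motifs.

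The upstream AUGs of the 5 leaders and a CUG of Polg are shown here because counts below are read against their positions. Polg, Mtif2, Immp1l and Cmc4 also have other CUG, GUG or UUG codons with a purine 3 bases before and a G after. These are not shown, and counts per stretch do not tell which codon was used. Transcript sequences were from GENCODE M21 and coordinates are on mm10. Start codons are in capitals, and distances count nucleotides from the first base of a codon to the first base of the annotated start codon.

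Polg AUG, 138 nt upstream (chr7:79465335-79465358, minus strand): aaggcaggcATGgtgagacctatt

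Polg CUG, 55 nt upstream (chr7:79465252-79465275, minus strand): gcagtcaagCTGgagcccaaagcc

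Polg annotated start (start codon at chr7:79465209-79465211, minus strand): gcaccaaccATGagccgcctgctc

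Nsun3 AUG, 71 nt upstream (chr16:62786739-62786762, minus strand): cccggaagtATGgcgtttcttcgt

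Nsun3 annotated start (start codon at chr16:62786680-62786682, minus strand): gcggggaccATGctgactcggctg

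Mtif2 AUG, 178 nt upstream (chr11:29526664-29526687, plus strand): tttccgttaATGcagctacgcttt

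Mtif2 AUG, 137 nt upstream (chr11:29526705-29526728, plus strand): ctctccgctATGggaattgtcagc

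Mtif2 AUGs, 96 and 84 nt upstream (chr11:29526752-29526778, plus strand): cttATGgaagtagtaATGaccccttct

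Mtif2 annotated start (start codon at chr11:29529936-29529938, plus strand): aggagaaatATGaaccagaagcta

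Immp1l AUGs, 123, 119 and 112 nt upstream (chr2:105908333-105908359, plus strand): gccATGgATGacccATGcacgctttga

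Immp1l AUG, 32 nt upstream (start codon at chr2:105908427-105908429, plus strand): aacagacttATGgctggtggtagc

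Immp1l annotated start (start codon at chr2:105930748-105930750, plus strand): catcaaagtATGcttcgtggtgtt

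Cmc4 AUG, 340 nt upstream (chrX:75416330-75416353, minus strand): cgcccgctgATGagagcccggcgc

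Cmc4 AUG, 318 nt upstream (chrX:75416308-75416331, minus strand): gcggcctacATGcgtcacggacag

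Cmc4 AUG, 137 nt upstream (chrX:75416127-75416150, minus strand): cggctcgggATGccccttggttcg

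Cmc4 annotated start (start codon at chrX:75409601-75409603, minus strand): tttctggatATGccacaaaaggat

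The Polg AUG (chr7:79465347-79465349, minus strand) and CUG (chr7:79465264-79465266) and the Nsun3 AUG (chr16:62786751-62786753, minus strand) have a purine 3 bases before the codon and a G directly after it, the context in which vertebrate ribosomes start most readily. The frame from the Polg AUG has 72 nt and ends 66 nt before the annotated start. Of the 4 Mtif2 AUGs, that at chr11:29526714-29526716 has both features, and of the 4 Immp1l AUGs, that at chr2:105908336-105908338. None of the 3 Cmc4 AUGs (the first at chrX:75416342-75416344) has both. An upstream AUG by itself is common, since 55.5% of 20697 scanned transcripts had at least 1. Among transcripts whose 5′ UTR was of like length (the shorter of the pair at least 0.8 times the longer) the share was 89.8% for Polg, 33.5% for Nsun3, 87.0% for Mtif2, 66.8% for Immp1l and 93.6% for Cmc4. The short Nsun3 leader, with 95 nt, was the one in which an upstream AUG, and an AUG in the strong context in particular (5.81% of leaders of like length), was least common.

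All 5 leaders were occupied, and in 4 of the 5 genes the density of reads per nucleotide was higher in the 5′ UTR than in the CDS in every library. The Polg 5′ UTR (453 nt) held 194 (Chx), 112 (Harr) and 104 (WT) reads, and its CDS (3654 nt) 630, 78 and 505. The density ratio of 5′ UTR to CDS was 2.48 (2.11 to 2.92) for Chx, 11.6 (8.67 to 15.5) for Harr and 1.66 (1.35 to 2.05) for WT. Without the first 2 CDS segments of Polg, which are described below, the ratio was 6.46 (Chx), 13.0 (Harr) and 5.03 (WT). Reads were thus denser in the Polg leader than in its CDS in all 3 libraries, and most of all in Harr. The Nsun3 5′ UTR (95 nt) held 18, 14 and 17 reads and its CDS (1047 nt) 107, 25 and 111, a density ratio of 1.85 (1.13 to 3.06), 6.17 (3.21 to 11.9) and 1.69 (1.01 to 2.81) in Chx, Harr and WT. Nsun3 was the thinnest of the 5, and its Chx and WT values cannot be told apart at this depth. The Mtif2 5′ UTR (394 nt) held 152, 141 and 104 reads and its CDS (2184 nt) 293, 59 and 256, a density ratio of 2.88 (2.36 to 3.50), 13.2 (9.78 to 18.0) and 2.25 (1.79 to 2.83).

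The Immp1l 5′ UTR (228 nt) held 303 (Chx), 169 (Harr) and 189 (WT) reads, more than its CDS (501 nt) with 143, 16 and 99. Its density ratio of 4.66 (3.82 to 5.68), 23.2 (13.9 to 38.8) and 4.19 (3.29 to 5.35) was the highest of the 5 in each library as counted. Most of its CDS sequence is shared with a pseudogene, and with the reads of that pseudogene added the first rank was lost, as described below. The Cmc4 5′ UTR (561 nt) held 86, 123 and 42 reads and its CDS (207 nt) 38, 27 and 48. Its density ratio was 0.835 (0.570 to 1.22), 1.68 (1.11 to 2.55) and 0.323 (0.213 to 0.488), so that in WT the CDS was the denser region and Cmc4 stood apart from the other 4. The order of the ratios in Chx was Immp1l, Mtif2, Polg, Nsun3 and Cmc4, in which the intervals of Mtif2, Polg and Nsun3 overlapped each other, as did those of Nsun3 and Cmc4. The value of Polg without its first 2 CDS segments has no place in this order, since the other CDS were not trimmed.

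**Figure D1:**
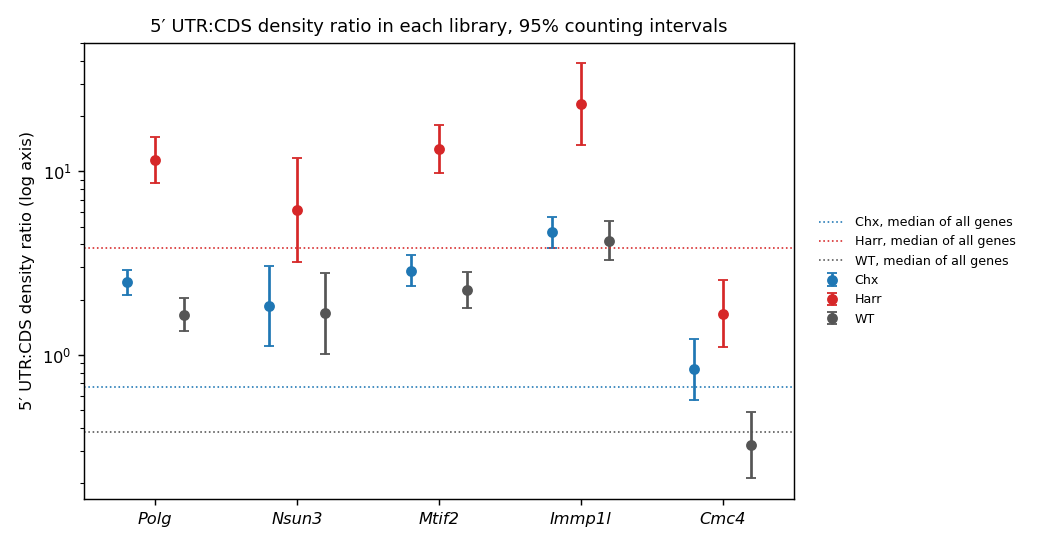
5′ UTR:CDS density ratio (reads per nucleotide of 5′ UTR over reads per nucleotide of CDS, log axis) of the 5 genes in the Chx, Harr and WT libraries, with 95% counting intervals and dotted lines at the median of all genes in each library. Harr is the highest point of every gene, and Cmc4 lies below the Harr median of 3.84.

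Beside all genes with at least 25 reads in these regions, the median density ratio was 0.667 over 12418 genes (Chx), 3.84 over 10782 (Harr) and 0.379 over 12185 (WT). Immp1l exceeded 96.9%, 96.5% and 98.3% of those genes, Mtif2 92.0%, 89.5% and 94.1%, and Polg 89.7%, 86.7% and 90.3%. Nsun3 exceeded 83.8% of genes in Chx and 90.6% in WT but 67.5% in Harr. Cmc4 exceeded 57.9% (Chx), 24.7% (Harr) and 44.9% (WT), the middle of the distribution or below it. CDS levels were from 2.86 to 7.99 RPKM in Chx, 2.19 to 13.4 in Harr and 3.51 to 7.67 in WT. The highest was that of Cmc4 in Harr, above 63.6% of 11243 genes, and next in rank were Cmc4 in WT, above 46.0%, and Immp1l in Chx, above 45.9%. The lowest CDS value was that of Nsun3 in Chx and WT and of Polg in Harr.

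The 3′ UTRs held few reads. Polg had 2, 0 and 1 reads in 3730 nt (Chx, Harr and WT), Mtif2 had 0 in each library in 163 nt, of which most is repeated in other genes (71.9% of its 25-nt words), and Immp1l 2, 2 and 4 in 226 nt. Nsun3 had 9, 12 and 12 reads in 2671 nt, which is at most 0.449 reads per 100 nt. In Cmc4 the 3′ UTR (224 nt) held 8, 1 and 14 reads. The density past the stop codon was thus below that of the CDS in Polg, Nsun3, Immp1l and Cmc4, and for Mtif2 the repeated sequence limits what the 0 reads show.

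Reads were counted at their 5′ ends, which lie a short way upstream of the codon in the ribosome. The leader therefore also collects ribosomes that initiate the CDS. In Polg and Immp1l these fall in the segment that touches the start codon, and splicing separates it from the exons farther upstream. In Mtif2 and Cmc4 that segment is so short, 7 and 10 nt, that the 5′ end of a ribosome at the annotated start codon can lie in the upstream exon, and initiation at that codon cannot be told apart there. In Nsun3 the leader is not split. In Polg, 165, 83 and 81 reads (Chx, Harr and WT) fell in the start-codon segment of 160 nt (chr7:79465212-79465371), 85.1%, 74.1% and 77.9% of the leader. The upstream exon of 293 nt (chr7:79466070-79466362) held 29, 29 and 23. Over the upstream exon alone the density ratio to the CDS was 0.574 (Chx), 4.64 (Harr) and 0.568 (WT). The ratios for Chx and WT depend on the part of the CDS used, since 70.0% and 74.3% of CDS reads lay in its first 2 segments, as described below. Against the CDS after those segments the upstream exon was the denser, 1.49 times (1.01 to 2.21) in Chx, 5.22 times (3.33 to 8.20) in Harr and 1.72 times (1.105 to 2.68) in WT. The start-codon segment of Polg contains both the AUG and the CUG shown above.

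In Mtif2 the start-codon segment has 7 nt and held 0 reads in each library, a count that allows up to 3 reads, or 0.0840 (Chx), 0.308 (Harr) and 0.0993 (WT) RPM. All 152, 141 and 104 leader reads fell in the upstream exon of 387 nt (chr11:29526457-29526843). In Immp1l, 6, 11 and 6 reads fell in the start-codon segment of 29 nt (chr2:105930719-105930747), against 297, 158 and 183 upstream. Upstream reads were 98.0%, 93.5% and 96.8% of the Immp1l leader, and the upstream density ratio was 5.23, 24.9 and 4.65. In Cmc4 the start-codon segment of 10 nt (chrX:75409604-75409613) held 9, 17 and 10 reads, and the upstream exon of 551 nt (chrX:75416015-75416565) 77, 106 and 32. Per 100 nt the start-codon segment of Cmc4 was the denser, at 90 (Chx), 170 (Harr) and 100 (WT) reads. The Nsun3 leader is a single segment that touches the start codon (chr16:62786683-62786777).

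Other annotated transcripts of these genes end their segments at different places, and subtracting nested segments divides the leaders further. In Nsun3, 17, 12 and 16 of the 18, 14 and 17 reads lay between 84 and 31 nt upstream of the start codon. The frame from the Nsun3 AUG has 36 nt, from 71 to 35 nt upstream, and lies wholly in that stretch, which is longer than the frame. The last 31 nt before the Nsun3 start codon held 1, 2 and 1 reads, and the first 11 nt of the leader held 0 in each library. Few Nsun3 leader reads thus began within 31 nt of the main start. The counts place 16 to 17 (Chx), 6 to 12 (Harr) and 15 to 16 (WT) of them between 73 and 31 nt. The first 12 nt of the Nsun3 CDS, a segment of its own, also held 0 reads in each library. Reads had at least 25 nt, so a read that begins in those 12 nt must cross the splice junction that follows. The same holds for reads that begin in the last nucleotides of the leader. How many such reads failed to align was not tested, which limits what the low counts at the main start show.

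In Immp1l, 284, 150 and 176 reads lay in 1 exon of 106 nt (chr2:105908324-105908429), between 135 and 29 nt upstream, which is 93.7%, 88.8% and 93.1% of the leader. That exon holds all 4 upstream AUGs and a CUG in the strong context 85 nt upstream. The first 3 AUGs open frames of 24, 78 and 54 nt that end before the start codon. The fourth AUG opens a frame of 99 nt that ends 67 nt into the CDS. The exon held 268 (Chx), 142 (Harr) and 166 (WT) reads per 100 nt, the densest stretch of over 50 nt in any of the 5 leaders. The first exon of Immp1l (93 nt), which has upstream CUGs but no AUG, held 13, 8 and 7 reads.

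In Mtif2 the reads divided differently between the libraries. The 3′ part of its upstream exon, from 158 to 7 nt upstream, held 83 (Chx), 35 (Harr) and 55 (WT) reads. It contains the AUGs at 137, 96 and 84 nt and a UUG in the strong context at 40 nt. The part from 394 to 158 nt upstream held 69, 106 and 49 reads. It contains the AUG at 178 nt, which is not in the strong context, and a GUG at 340 nt, which is. The 5′ part of the Mtif2 leader thus held 45.4% of leader reads in Chx and 47.1% in WT but 75.2% in Harr. The first 31 nt of the leader held 1 read in each library. Frames from the 4 Mtif2 AUGs have 60, 51, 27 and 15 nt, and all end before the start codon.

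In Cmc4, 59, 76 and 26 reads lay from 209 to 10 nt upstream, with the AUG at 137 nt and its frame of 21 nt. That stretch also has a GUG at 82 nt and CUGs at 73 and 50 nt in the strong context. The stretch from 414 to 209 nt upstream held 14, 24 and 5 reads. It has the other AUGs (frames of 45 and 57 nt) and a CUG in the strong context at 366 nt. Beyond 533 nt upstream no read was counted in any library. In Polg the stretch from 271 to 160 nt upstream held 27, 25 and 20 reads and the remaining 182 nt of the upstream exon 2, 4 and 3. The former has a GUG at 199 nt and the latter a CUG at 447 nt, both in the strong context. In Polg a separate first exon of 168 nt held 1, 0 and 0 reads, while first exons of 111 to 129 nt that lie within the main upstream exon held most of its reads. In Cmc4 a first exon of 47 nt held 0, and one of 309 nt held the 9, 17 and 10 reads of the 10 nt before the start codon, which it contains, and no other. In Mtif2 the other first exons overlap the main leader, so their reads are in part the same, and 3 of them, of 40, 80 and 130 nt, held 1, 1 and 1, then 3, 1 and 3, and then 16, 22 and 3 reads.

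**Figure D2:**
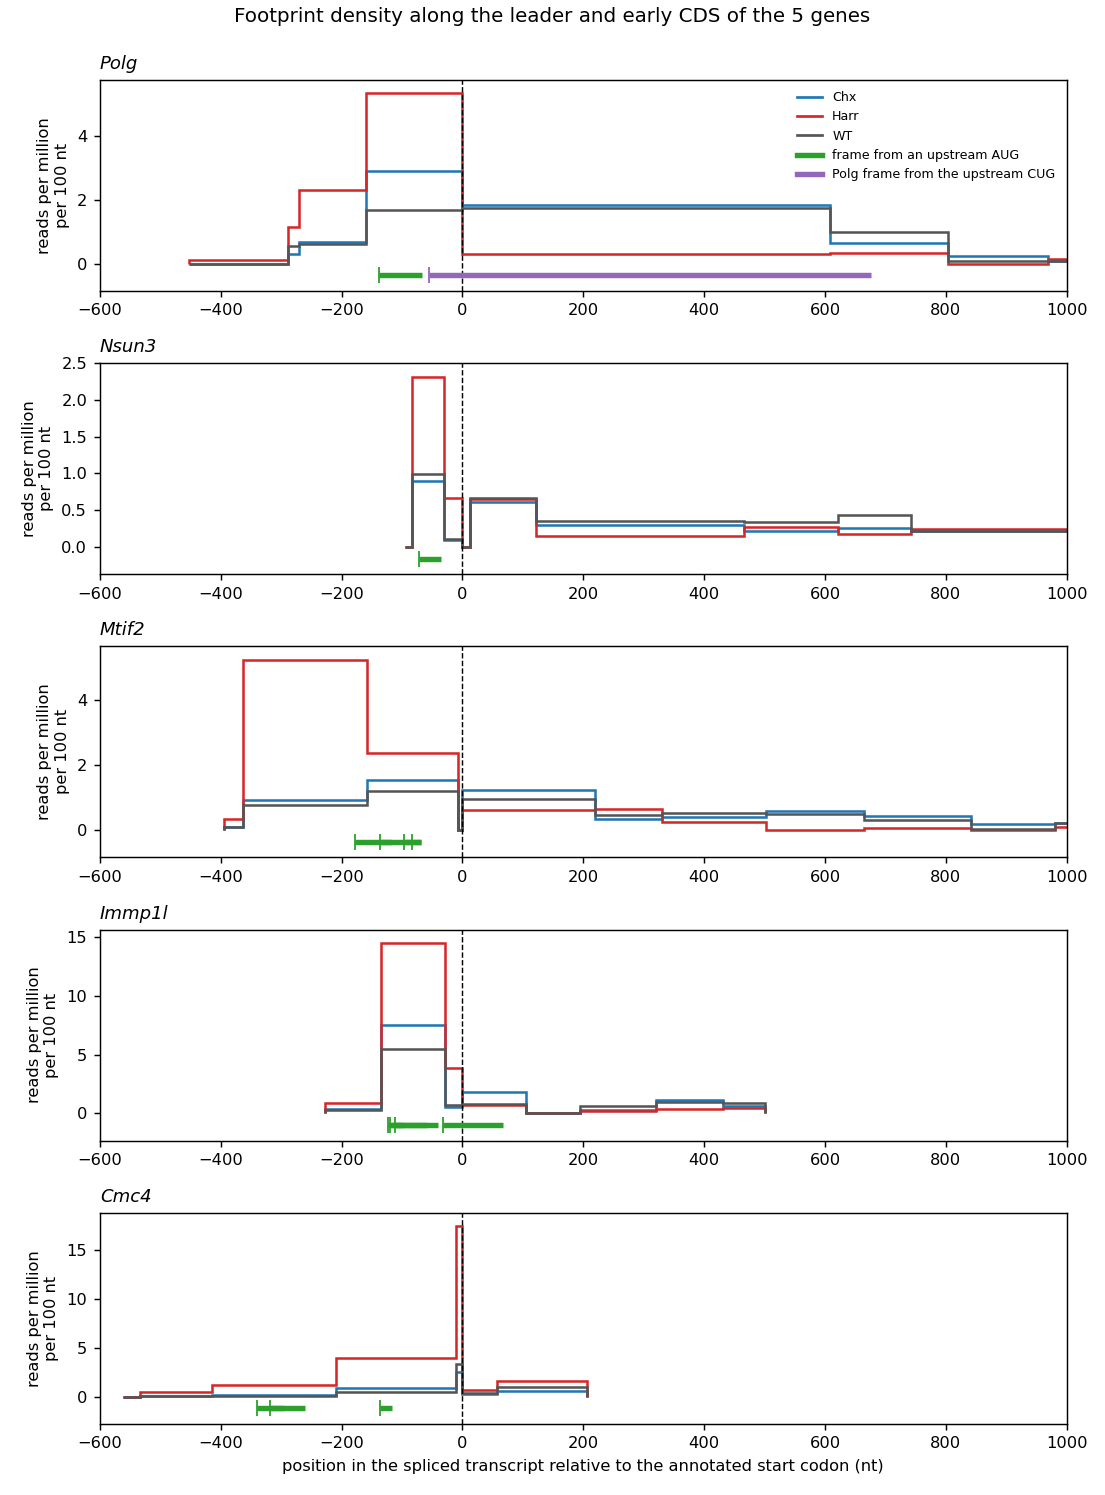
RPM per 100 nt in each stretch of leader and CDS (vertical axis) against the position in the spliced transcript (horizontal axis, nucleotides from the annotated start codon, dashed line), for 5 genes and 3 libraries. Bars under each panel mark frames opened by upstream AUGs and, in Polg, by the CUG at 55 nt. In Nsun3 and Immp1l the densest stretch contains upstream AUGs, in Mtif2 the Harr peak lies 5′ of most of them, and the narrow Cmc4 peak is the segment of 10 nt before the start codon.

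Footprints on the Polg CDS were concentrated at its 5′ end. The first CDS segment (608 nt, chr7:79464604-79465211) held 397 of 630 CDS reads in Chx, 18 of 78 in Harr and 316 of 505 in WT. These are 63.0% (Wilson interval 59.2% to 66.7%), 23.1% (15.1% to 33.6%) and 62.6% (58.3% to 66.7%) of CDS reads in 16.6% of the CDS length. The density in that segment was 8.54 times (7.26 to 10.03) that of the remaining CDS in Chx and 8.38 times (6.99 to 10.03) in WT, above 99.4% of 5325 and 5177 genes with at least 50 CDS reads, a first segment of at least 100 nt and at least 300 nt after it. In Harr the ratio was 1.50 (0.888 to 2.55), beside a median of 1.56 over 3849 genes.

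The frame opened by the Polg CUG has 732 nt, differs from the CDS frame and ends 677 nt into the CDS, within the second CDS segment. In human POLG mRNA a CUG-started frame that overlaps the CDS is known to encode a protein of its own, POLGARF. A CUG in the strong context whose frame runs at least 600 nt into the CDS was found in 9 of 20697 transcripts (0.0435%). The second Polg CDS segment (196 nt) held 44, 6 and 59 reads. From the third segment on, over 2850 nt in 20 segments, the density was 6.63 (Chx), 1.89 (Harr) and 4.56 (WT) reads per 100 nt, against 54.9, 2.99 and 46.6 in the first 2 segments together. The first 2 segments were thus 8.27 times (6.98 to 9.81) denser than the rest in Chx and 10.2 times (8.38 to 12.5) in WT, whereas in Harr the ratio was 1.58 (0.974 to 2.55). The files hold counts per segment and not per frame, so reads of the 2 overlapping frames cannot be told apart.

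**Figure D3:**
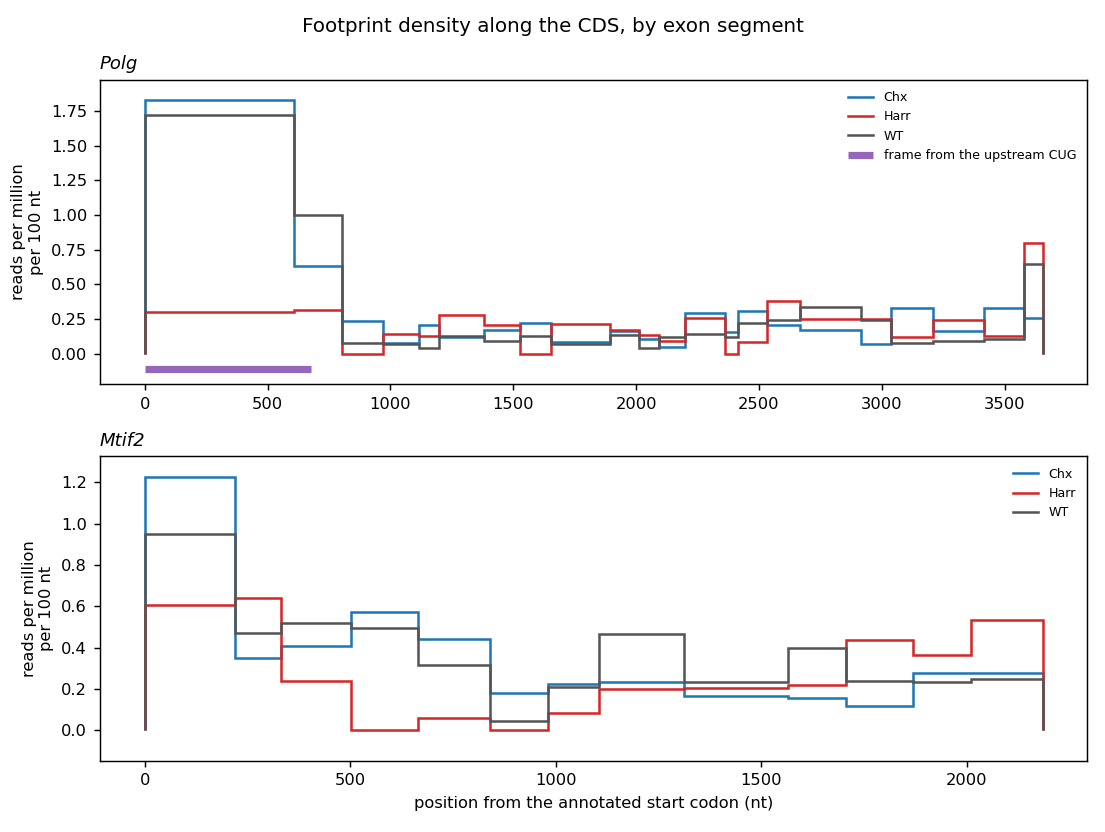
RPM per 100 nt in each CDS segment of Polg and Mtif2 (vertical axis) against distance from the annotated start codon (nt), in 3 libraries; the bar marks the part of the Polg CDS that the frame from the upstream CUG overlaps. In Chx and WT the Polg density drops after the second segment, and in Mtif2 Harr is at or near 0 between 503 and 981 nt.

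In Polg and Mtif2, whose CDS are the longest of the 5, Harr held fewer reads relative to Chx in the first 1200 nt than beyond. In Polg, the segments in the first 1200 nt of the CDS held 465 reads in Chx and 27 in Harr, a ratio of 0.0581 (0.0394 to 0.0856), and those beyond held 165 and 51, a ratio of 0.309 (0.226 to 0.423). In Mtif2 the same parts held 215 and 26 reads, a ratio of 0.121 (0.0805 to 0.182), and 78 and 33, a ratio of 0.423 (0.282 to 0.636). In Polg the first 2 segments had 24 Harr to 441 Chx reads or 0.0544 (0.0361 to 0.0821), and the other segments within 1200 nt 3 to 24 or 0.125 (0.0376 to 0.415), an interval that overlaps those on either side. In Mtif2 the first segment had 13 to 96 or 0.135 (0.0759 to 0.242) and the others within 1200 nt 13 to 119 or 0.109 (0.0616 to 0.194), both below the distal part. The Mtif2 segments from 503 to 981 nt held 33, 28 and 9 reads in Chx and 0, 1 and 0 in Harr. Reads of the first Mtif2 CDS segment (219 nt) were 96, 13 and 63, a density 4.37 times (3.43 to 5.58) that of the remaining CDS in Chx, above 94.9% of genes, and 2.93 times (2.20 to 3.89) in WT.

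Between libraries, the log2 odds ratio of leader to CDS reads was computed with 0.5 added to each count, and a gene was counted as higher or lower with at least 10 5′ UTR reads in the pair, a value of at least 1 in size and an interval without 0. Between Harr and Chx, 4 of the 5 members had a higher ratio in Harr, and so had 88.8% of 10806 genes. The values were 2.28 ± 0.40 (SE) for Immp1l, 2.22 ± 0.24 for Polg, 2.19 ± 0.27 for Mtif2, 1.72 ± 0.60 for Nsun3 and 1.00 ± 0.41 for Cmc4, whose unrounded value lay just under 1. The median of the 5 was 2.19 beside 2.46 over 10723 genes, and all 5 lay below the median of all genes. No more than 7.91% of genes lay below Cmc4, whereas the intervals of the other 4 included the median. For Immp1l the interval included the median only without the reads of Gm8121, a pseudogene described below. With them added the value was 1.88 ± 0.26 and the interval lay below the median. For Polg the interval included the median with the whole CDS, and without its first 2 CDS segments the value was 1.01 ± 0.28. No other gene was trimmed in that way, so that value has no place among all genes. Between Harr and WT all 5 members had the higher ratio in Harr, as did 93.7% of 10384 genes, with member values from 1.86 (Nsun3) to 2.79 (Polg) and a median of 2.43, against 3.23 over all genes. All 5 lay below the median of all genes, and the intervals of Nsun3, Mtif2 and Cmc4 did not include it. With the reads of Gm8121 added, Immp1l was at 2.19 ± 0.27, with an interval that did not include it either. Without its first 2 CDS segments Polg was at 1.37 ± 0.30 and no longer the highest. Between Chx and WT, 1 of 5 members had the higher ratio in Chx, Cmc4 with 1.36 ± 0.41, against 30.2% of 10483 genes in Chx. The other 4 had values of 0.13 to 0.58, and of these the interval of Polg (0.20 to 0.96) did not include 0, although it did without the first 2 CDS segments (0.36 ± 0.24). The 3 pairs share libraries and are not independent of each other.

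**Figure D4:**
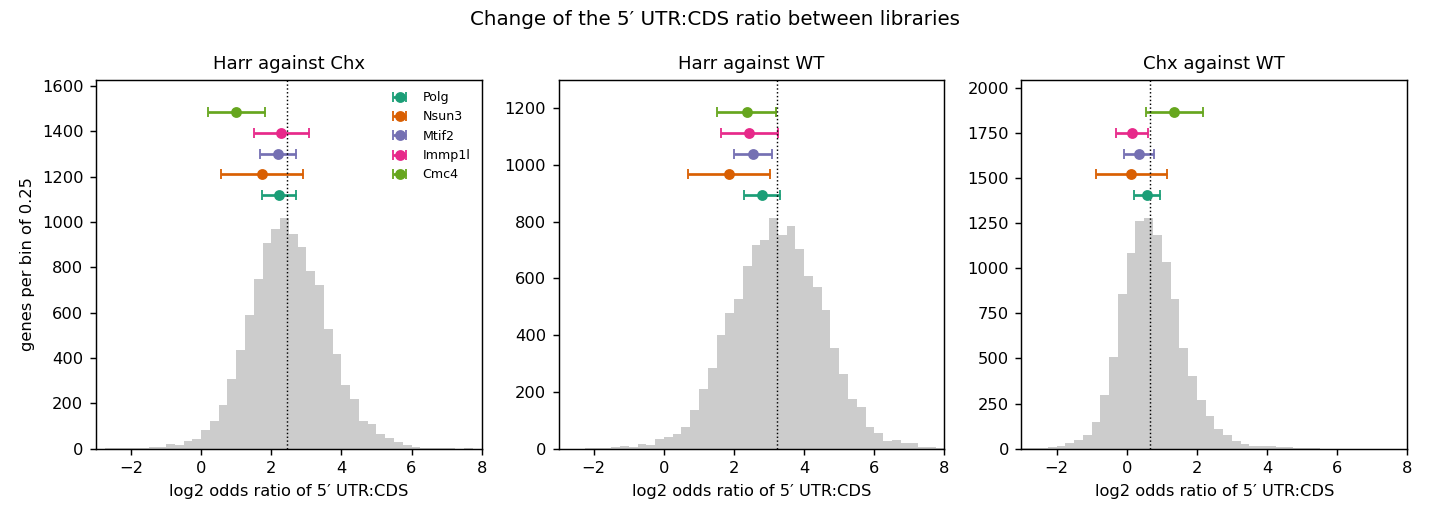
Number of genes (vertical axis, bins of 0.25) by log2 odds ratio of 5′ UTR:CDS reads (horizontal axis) for the 3 pairs of libraries, with the 5 genes as points with 95% counting intervals above the bars and a dotted line at the median of all genes. The points sit inside the body of each distribution, and Cmc4 is the lowest point in Harr against Chx and the highest in Chx against WT.

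Split by segment, the upstream exon of Polg had a value of 3.01 ± 0.41 (Harr against Chx) and the start-codon segment 2.02 ± 0.26. In Immp1l the order was the opposite, with 2.20 ± 0.40 for the exon of 106 nt and 3.94 ± 0.80 for the 29 nt that touch the start codon. In Cmc4 the values were 0.94 ± 0.42 upstream and 1.37 ± 0.68 at the start codon. The CDS reads are common to both segments of a gene and cancel when the segments are compared directly. The difference was 0.99 ± 0.42 between the upstream exon and the start-codon segment of Polg, and 1.74 ± 0.72 between the start-codon segment and the exon of 106 nt of Immp1l, both with intervals that did not include 0. In Cmc4 it was 0.42 ± 0.62 (start-codon segment minus upstream exon), with an interval of −0.79 to 1.64. In RPM the leaders were 2.05-fold (Immp1l) to 5.23-fold (Cmc4) higher in Harr than in Chx. Leaders of all genes rose as well, with 1964171 of 35722483 reads in Chx and 2029333 of 9754412 in Harr.

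The CDS level, relative to all CDS reads of a library, differed in direction between the genes. Between Harr and Chx the log2 ratio was 1.94 ± 0.36 for Cmc4, above 99.9% of 11459 genes with at least 100 CDS reads. Among 193 genes with a CDS of like length, by the same limit of 0.8, 1 was higher and the median was −0.39. The Cmc4 value rests on 38 CDS reads in Chx and 27 in Harr. For Polg the ratio was −0.58 ± 0.17, and 0.910% of 1099 genes with a CDS of like length were lower, beside a median of 0.50 in that class. The sign of this value came from the first 2 CDS segments, without which the Polg ratio was 0.62 ± 0.22. The other genes of the class were not trimmed, so 0.62 has no place beside their median. Immp1l was at −0.70 ± 0.37 beside a median of −0.74 for its class. The intervals of Immp1l, Mtif2 (0.12 ± 0.20) and Nsun3 (0.35 ± 0.32) included 0. Between Chx and WT the ratios were −0.61 ± 0.31 for Cmc4, −0.33 ± 0.20 for Nsun3, −0.08 ± 0.12 for Mtif2, 0.04 ± 0.09 for Polg and 0.25 ± 0.19 for Immp1l. The last 4 had intervals that included 0, and that of Cmc4 ended at 0.

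Part of the 5′ UTR or CDS sequence of 2 genes is also found elsewhere. Of the 25-nt words of the Immp1l CDS, 79.9% occur in the processed pseudogene Gm8121 (chr5:57608569-57609067, plus strand), and none of its 5′ UTR words occur in another gene. Gm8121 was listed with 176, 32 and 148 reads, which could belong to either locus. With all of these added to the CDS of Immp1l, its density ratio was 2.09 (Chx), 7.74 (Harr) and 1.68 (WT), still above 1 in each library. It was then below that of Mtif2 in every library and below that of Polg in Chx and Harr, so the first rank of Immp1l depends on where those reads belong, and the values of Polg depend on the part of its CDS used. With those reads the log2 odds ratio between Harr and Chx was 1.88 ± 0.26, with an interval below the 2.46 of all genes. The second CDS segment of Immp1l held 0 reads in each library, and 67 of 143 reads in Chx lay in the first, against 25 of 99 in WT.

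Cmc4 shares its first exon with Mtcp1, an annotated neighbour on the same strand that encodes an unrelated protein, and 94.8% of the words of the Cmc4 5′ UTR occur in Mtcp1 transcripts. The 77, 106 and 32 reads of the upstream exon are counted in full for both genes. The CDS of Mtcp1 (324 nt) held 10, 1 and 13 reads, or 0.864, 0.316 and 1.33 RPKM, against 5.14, 13.4 and 7.67 RPKM for the CDS of Cmc4. The 47 nt of 5′ UTR that belong to Mtcp1 by itself held 1, 1 and 2 reads. The 10 nt before the Cmc4 start codon, with 9, 17 and 10 reads, belong to Cmc4 transcripts alone. Polg, Nsun3 and Mtif2 shared no word of 5′ UTR or CDS with another gene, whereas 71.9% of the words of the Mtif2 3′ UTR did occur in others.

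Partners and paralogs of the 5 proteins were taken from their most read transcripts, because the longest one of Nsun4 held no read. Mtif3, the other initiation factor of mitochondrial ribosomes, had 11, 8 and 6 leader reads and 411, 37 and 347 CDS reads in Chx, Harr and WT, and its density ratio of 0.0984 in Chx was well below the 2.88 of Mtif2. Immp2l, the second subunit of the inner membrane peptidase, had 9, 14 and 3 leader reads and a ratio of 0.218 in Chx, against 4.66 for Immp1l. Polg2, the accessory subunit of the polymerase, had 13, 14 and 1 leader reads and a ratio of 1.05. Nsun4, the methyltransferase of the mitochondrial ribosome, had a ratio of 0.696 and Nsun2, which methylates cytosolic and mitochondrial tRNAs, of 0.424, both below the 1.85 of Nsun3. Cmc1 and Cmc2, assembly factors with the same cysteine motifs as Cmc4, had ratios of 0.440 and 0.315. All 7 partners thus had a lower ratio in Chx than the member they are paired with, on 9 to 45 leader reads. In Harr the order was the opposite for Cmc1, whose ratio of 9.61 was above the 1.68 of Cmc4.

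Over the wider pathways, most genes had more leader reads per CDS read in Harr than in Chx, as did 88.8% of all genes. For mitochondrial DNA maintenance and transcription, 16 of 18 genes tested were higher and 0 lower, with a median log2 odds ratio of 2.55, from 4.64 ± 0.51 for Ssbp1, the mitochondrial single-stranded DNA-binding protein, to 1.25 ± 0.75 for Polrmt, the mitochondrial RNA polymerase. For RNA modification and processing the count was 17 of 18 and the median 2.19, with Hsd17b10, a subunit of mitochondrial RNase P, highest (4.34 ± 0.38) and Nsun2, on its longest transcript, lowest (−0.93 ± 0.46, with an interval that does not include 0 and a size under 1). On its most read transcript Nsun2 was at 1.54 ± 0.53, so its direction turned with the transcript. For translation factors all 12 tested were higher, with a median of 2.49, from Mtrf1, a release factor (4.06 ± 0.74), to Tufm, the elongation factor Tu (1.85 ± 0.32). For proteases and processing peptidases 11 of 12 were higher, with a median of 2.26, from Lactb (5.13 ± 0.58) to Pmpca, a subunit of the matrix processing peptidase (1.53 ± 0.86). For proteins with twin cysteine motifs and others of the intermembrane space 20 of 21 were higher, with a median of 3.27, from Chchd2 (5.54 ± 0.41) to Gfer, the sulfhydryl oxidase (0.52 ± 0.40). Against this last list the 1.00 of Cmc4 lay near the low end. Of the 18 other genes in which the study named uORFs, 15 were higher and the median was 2.26, close to the 2.19 of the 5 mitochondrial genes. Between Chx and WT the counts were smaller, as they were for the 5 genes and for all genes. In that pair 5 of 18 genes of DNA maintenance, 4 of 17 of RNA modification, 2 of 12 translation factors, 4 of 11 proteases and 8 of 21 intermembrane space proteins had the higher ratio in Chx, against 30.2% of all genes, and Chchd5 (−1.13 ± 0.54) was the 1 gene of these lists with the lower. Of the other study-named genes, 2 of 18 had the higher and 1 the lower ratio in Chx, with a median of 0.08 beside 0.35 for the 5 members.

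For each gene the 3 with the most similar pattern were sought among 9748 genes with at least 20 leader and 100 CDS reads over the libraries, by the Euclidean distance over 5 values (the log2 density ratio in each library and the log2 ratios of CDS level, Harr to Chx and Chx to WT). Nearest to Polg were Glb1, Igsf21 and Arhgap10 (distances of 0.304 to 0.370). Nearest to Nsun3 were Zbed6, Gm38394 and Zfp317 (0.267 to 0.332), the first 2 of which are overlapping genes with the same CDS counts. Nearest to Mtif2 were Apaf1, Sgip1 and Agtpbp1 (0.357 to 0.388), and nearest to Immp1l were Fancm, Mettl22 and Iqcc (0.238 to 0.422). Cmc4 had no neighbour closer than 0.784 (Sap130, then Tmem231 and Arid4b).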

How the data were processed

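Ribosome footprints of primary cortical neurons were analysed in 3 libraries, 1 per treatment. The authors deposited, for each library and region (5′ UTR, CDS, 3′ UTR), whole-number counts of reads per exon segment, the count per nucleotide (coverage signal) and RPKM. Per the file headers, Plastid counted the 5′ end of each read (offset 0, 25 to 100 nt) on mm10 alignments from which ribosomal reads and duplicates had been removed. The study's own ORF search assigned reads from the 3′ end. The strand setting of these tables is not given in the sources used here.

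Counts were the input of every computation. RPKM was recomputed from the deposited counts. Identifiers were joined to GENCODE M21 (same build; 99.1% of 142446 matched), segments were summed per transcript, and the longest transcript per gene was used (Python 3.11.15, pandas 2.3.3, numpy 2.4.6, scipy 1.17.1). The odds ratio was tested on simulated data. With 1 library per treatment no test was run. Depth was 9754412 to 35722483 reads, and intervals and floors of 3 counts cover counting error only. Frames were scanned for AUG, and for CUG, GUG and UUG with a purine 3 bases before and a G after. No limit was set on the length of a frame. Alternatives were another pseudocount, minimum, scaling, transcript and segments. The members and gene lists were chosen with earlier results of these data known. Genes named are the 5 members, their partners, genes that overlap or share their sequence, the highest and lowest gene of each pathway list and the 3 nearest by pattern. The counts over nested segments, the differences between leader segments, the first CDS segments, classes of CDS length and the frame into the CDS were chosen after the values were seen. The split of the Polg and Mtif2 CDS at 1200 nt was likewise not planned at the outset.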

Additional observations from a re-analysis of the deposited data

How the results depend on the processing

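No paired analysis was possible because each treatment has 1 library. Of 69 values recomputed under the alternatives listed at the outset, 65 stayed within the main counting interval or, for counts, close to the main count. The longest transcript was also the most read one for all 5 genes, and no leader segment overlapped an annotated CDS. These 2 alternatives could thus give only the main values. Their values are counted among the 65 and say nothing on how the results depend on processing. With upstream segments only, the Polg density ratio was 0.574 (Chx), 4.64 (Harr) and 0.568 (WT). Scaled to the library total of the file headers, the median log2 CDS ratio of Harr to Chx was −0.43 instead of 0.12 and that of Harr to WT −0.50 instead of 0.01, since that scaling shifts all genes by −0.55 and −0.51. Of 24 values under 2 alternatives chosen after seeing the data, 6 moved and 2 changed sign. With reads of Gm8121 added, the Immp1l density ratio was 2.09, 7.74 and 1.68. Without the first 2 CDS segments of Polg its density ratio was 6.46 (Chx) and 5.03 (WT), and its log2 odds ratio between Harr and Chx was 1.01 ± 0.28. Its log2 CDS ratio was then 0.62 instead of −0.58 (Harr to Chx) and 0.88 instead of −0.54 (Harr to WT), and 0.26 instead of 0.04 (Chx to WT). Nsun3 rests on 14 to 18 leader reads per library, and depth limits it most.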
